A study of Homo sapiens with 12 samples.

Results

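The genes described here encode the proteins of the cytosolic ribosome. They were chosen by symbol alone: every gene named RPL or RPS plus a number, with A or X allowed at the end, together with RPLP0, RPLP1, RPLP2 and RPSA. The rule took 77 of the 18950 genes in the table, of which 31 belong to the small (40S) subunit and 46 to the large (60S) subunit. FAU, which encodes a ribosomal protein as a fusion, carries another kind of name and is given apart from the 77.

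Total RNA was sequenced from DU145 and PC3, a pair of established human prostate cancer cell lines grown in DMEM with 10% serum and given no drug. Each line was sorted by green fluorescent protein (GFP), whose brightness the study reads as Wnt/β-catenin signaling activity. The brightest 10% of the cells are called GFP high and stand for active signaling, and the dimmest 10% are called GFP low and stand for inactive signaling. The 4 groups (both sorts of DU145 and both sorts of PC3) held 3 libraries each. The labels describe neither the reporter construct nor the clonality of the lines. Nor do they tell if replicates were grown or sorted separately. The p-values therefore measure only how much these samples vary, and that variation may be technical.

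Library totals ran from 13453614 to 21528810 estimated counts, and 923043 to 1460488 of them fell on the 77 genes. Levels are given in CPM, the read count of a gene per unit of library size as the authors normalized it, computed back from the deposited log2 values. Of the epithelial markers, KRT8 averaged 1753 CPM in DU145 GFP high and 2755 CPM in DU145 GFP low, but only 18.1 and 26.1 CPM in the same sorts of PC3. In both lines KRT8 was called lower in GFP high (-0.66 ± 0.10 in DU145 and -0.53 ± 0.10 in PC3, limma adjusted p = 0.00132 and 0.00541) and KRT18 was called lower in DU145 (-0.52 ± 0.12, limma adjusted p = 0.0105), and the part of this in the results below was not tested. CDH1 and EPCAM averaged at most 0.381 CPM in any group. Of the leukocyte and stromal markers measured, PTPRC, CD14, COL1A2, VWF and PECAM1 averaged at most 0.491 CPM in any group, COL1A1 at most 1.10 CPM and COL3A1 at most 2.65 CPM. CD68 averaged 26.8 CPM in DU145 GFP high, 40.1 CPM in DU145 GFP low and at most 6.66 CPM in PC3, and its part in the results was not tested.

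The ribosome translates messenger RNA into protein: its small subunit reads the message, and its large subunit joins the amino acids. Ribosomal protein genes are spread over the genome but are made in near-equal amounts, and their messenger RNAs typically start with a terminal oligopyrimidine (TOP) tract, a C followed by an unbroken run of C and T, through which mTORC1 and the RNA-binding protein LARP1 control their translation and stability. MYC, a classic Wnt/β-catenin target, raises the transcription of ribosomal protein genes and of the factors that assemble ribosomes.

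The letters around the transcription start, where a TOP tract would lie, are shown first. A promoter entry from RefSeq (build GRCh38.p14) was matched by symbol for 62 of the 77 genes. Each line gives 30 bases, 15 on each side of the annotated start, 5′ to 3′, with the longest run of C and T in capitals. The genes shown are those on which the comparisons below turn, plus RPL7A for the longest run and RPL13 for one of the 3 genes (with RPL15 and RPS29) that had no run above 4 bases.
RPLP0, chr12:120201097-120201126, minus strand: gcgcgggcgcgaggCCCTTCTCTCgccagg
RPLP2, chr11:809952-809981, plus strand: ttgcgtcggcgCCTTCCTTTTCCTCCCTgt
RPSA, chr3:39406705-39406734, plus strand: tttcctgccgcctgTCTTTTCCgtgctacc
RPS19, chr19:41860240-41860269, plus strand: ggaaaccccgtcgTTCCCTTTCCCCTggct
RPS24, chr10:78033848-78033877, plus strand: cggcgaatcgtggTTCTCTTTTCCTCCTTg
RPS15, chr19:1438381-1438410, plus strand: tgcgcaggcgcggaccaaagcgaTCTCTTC
RPL35, chr9:124861943-124861972, minus strand: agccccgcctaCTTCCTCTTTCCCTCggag
RPL36A, chrX:101390996-101391025, plus strand: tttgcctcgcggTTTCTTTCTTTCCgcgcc
RPL17, chr18:49492451-49492480, minus strand: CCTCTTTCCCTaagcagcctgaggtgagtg
RPS29, chr14:49598696-49598725, minus strand: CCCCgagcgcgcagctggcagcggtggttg
RPL7A, chr9:133348203-133348232, plus strand: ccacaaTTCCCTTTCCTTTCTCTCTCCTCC
RPL13, chr16:89560642-89560671, plus strand: ggCCCTgctatcatcccagagtgcattgcg

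The longest run in the window had a median of 11 bases over the 62 genes, from 4 to 24, against a median of 4 over all 27305 promoters of the same length. A run of at least 8 bases was present for 47 of the 62 genes (75.8%) and for 13.4% of all promoters. A run of at least 5 bases that covered the first transcribed base was present for 44 of the 62 (71.0%) and for 8.40% of all promoters. In RPL17 the run lay upstream of the annotated start, and in RPS29 the window held no run above 4, which says only that these letters are not around the start that RefSeq lists.

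Over the whole table window of 300 bases, searched on both strands, the ETS-factor letters CCGGAAG were present for 21 of the 62 genes (33.9%) and for 10.7% of all promoters. The YY1 letters AAGATGG were present for 8 (12.9%, against 6.06%) and the SP1 letters GGGCGG for 34 (54.8%, against 44.6%). The TCF/LEF letters CTTTGA, the core that β-catenin's partner factors read, were present for 4 (6.45%, against 13.1%). The E-box CACGTG, which MYC reads, was present for 3 (4.84%, against 7.43%) and the TATA box letters TATAAA for 5 (8.06%, against 12%). A match is a description of letters and not a bound site.

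All 77 genes were measured well above the minimum that a gene had to pass to be tested (16 CPM in at least 3 of the 12 libraries, passed by 8655 genes). Single-library levels ran from 44.1 CPM (RPS29 in PC3) to 5749 CPM (RPS2 in DU145), and 28 of the 100 most abundant genes of the table were among the 77. Levels between genes are compared per kilobase of coding sequence. On that scale the median was 1563 CPM per kilobase over the 12 libraries. RPS2, a core protein of the small subunit, stood at 5185 CPM per kilobase and RPL13A at 4176. The value of RPL41 was 10136, but its coding sequence has only 75 bases, so that division inflates it. RPS29, a zinc-binding protein of the small subunit, was lowest at 387 CPM per kilobase, 26.2 times below RPL41, followed by RPL34 (504), RPL9 (512) and RPL24 (534). The levels thus spread many-fold over the family, on a scale that does not correct for untranslated regions or for reads shared with pseudogenes.

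Many ribosomal protein genes have near-identical pseudogenes, and reads shared with such copies were not measured here. The counts recovered from the deposited values were not whole (tolerance 0.01) in at least 1 library for 45 of the 77 genes and in all 12 libraries for 23 of them, against 8.80% of all genes tested. RPLP0, RPL10, RPL3, RPL15, RPL9, RPL22, RPL36A, RPS2, RPS10, RPS26 and RPS29 are among the 23. How the authors counted reads with several matches is not given in the sources used here, so the levels of these genes are held as less certain than those of RPS19, RPS6, RPLP1, RPLP2 or RPL36, whose counts were whole in every library.

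**Figure D1:**
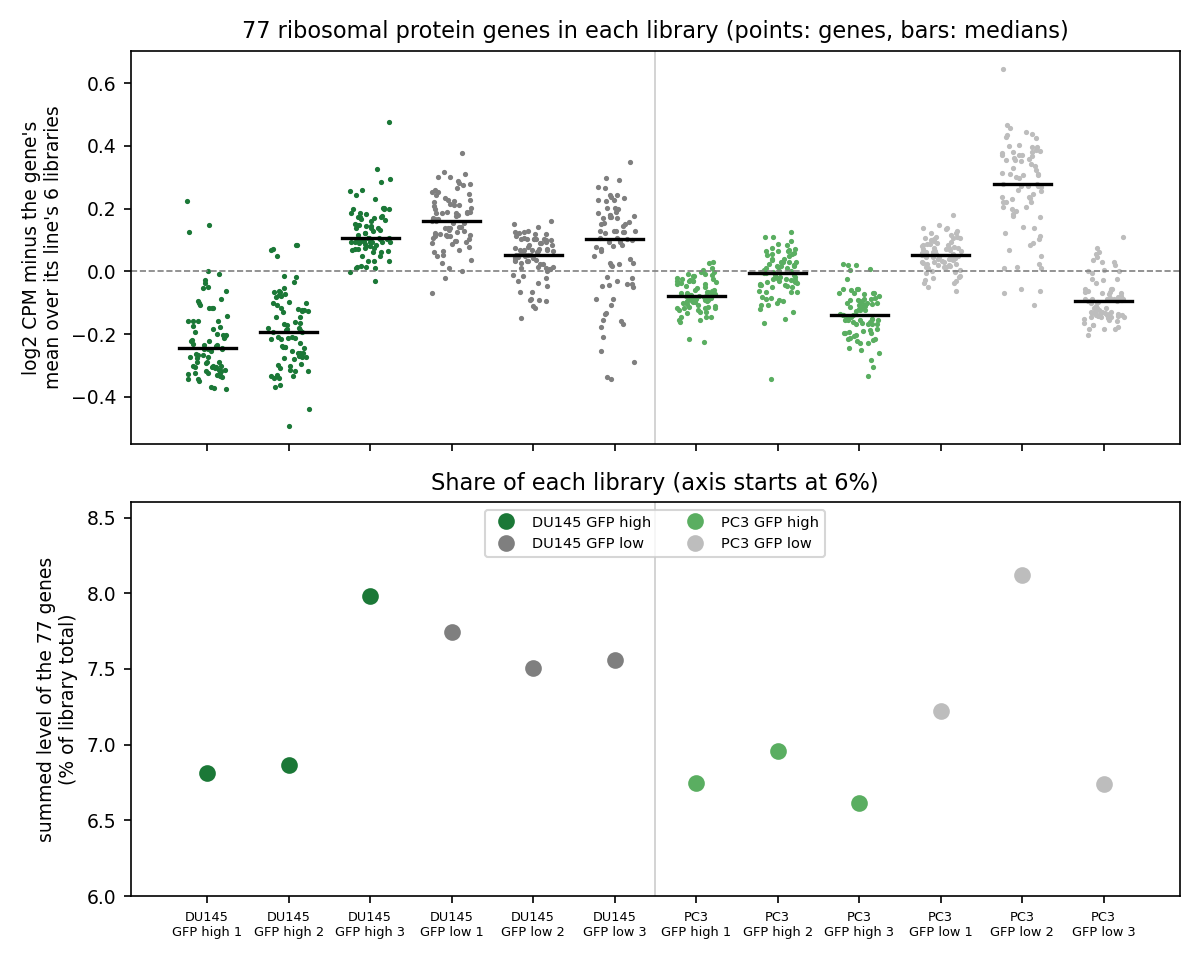
The upper panel plots, for each of the 12 libraries (x axis), the log2 CPM of each of the 77 genes minus that gene's mean over the 6 libraries of its line, with a bar at the median. The lower panel plots the summed level of the 77 genes as a percentage of the library total, on an axis that starts at 6%. In both panels DU145 GFP high 1 and 2 lie below the 3 DU145 GFP low libraries, and PC3 GFP low 2 lies above the other 5 PC3 libraries (medians in the upper panel). DU145 GFP high 3 lies beside the DU145 GFP low libraries in the upper panel and above them in the lower panel.

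The 77 genes moved together from library to library, also within groups. In DU145 they made up 6.81%, 6.86% and 7.98% of the total in replicates 1, 2 and 3 of GFP high, and 7.75%, 7.51% and 7.56% in those of GFP low. In PC3 they made up 6.75%, 6.96% and 6.62% in GFP high and 7.22%, 8.12% and 6.74% in GFP low. The group means were 7.22% ± 0.660 (SD, n = 3) and 7.60% ± 0.126 in DU145 and 6.77% ± 0.171 and 7.36% ± 0.702 in PC3, and in each line the ranges of the sorts overlapped. DU145 GFP high 3 and PC3 GFP low 2 stood apart from the other libraries of their groups.

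Counted gene by gene, only 4 and 5 of the 77 were above their line mean in DU145 GFP high 1 and 2, while 75 were above it in DU145 GFP high 3. For 63 genes both DU145 GFP high 1 and 2 were below all 3 DU145 GFP low libraries, and for 17 genes DU145 GFP high 3 was above all 3. In PC3, GFP low 2 was the highest of the 6 libraries for 67 of the 77 genes. The same counts were not made over all genes tested, so they do not set the 77 genes apart from the table. Over all genes tested the median deviation from the line mean (log2) was -0.10, -0.02 and -0.01 in DU145 GFP high 1, 2 and 3. For the 77 genes it was -0.24, -0.19 and 0.11. In PC3 GFP low 2 the medians were 0.01 over all genes and 0.28 over the 77. A library-wide trend in base composition moved with these shifts. The median deviation of the 20% of tested genes richest in G and C, minus that of the 20% poorest, (log2) was -0.69, -0.46 and 0.11 in the GFP high and 0.38, 0.09 and 0.54 in the GFP low libraries of DU145. In PC3 it was -0.04, 0.07 and -0.13 in GFP high and -0.11, 0.45 and -0.26 in GFP low, so PC3 GFP low 2 was the highest on this measure too. The part of this trend in the levels of the ribosomal genes was not tested as a cause.

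In DU145, 15 ribosomal protein genes were lower and 1 was higher in GFP high than in GFP low cells (limma, Benjamini-Hochberg adjusted p under 0.05). The changes were small, none past 1.34-fold. Over all 8655 genes 20.7% were called lower and 15.5% higher in this comparison, so the 15 of 77 called lower are near the background share, and the 1 of 77 called higher is below it. The median log2 fold change of the 77 genes was -0.22 against -0.07 over all genes tested, and 67 of the 77 had a negative estimate. In bulk RNA, fewer cells that make a transcript and less of it per cell cannot be told apart.

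RPS15, a protein of the small subunit's head, had the lowest value. Its levels were 844, 818 and 1086 CPM in the 3 GFP high and 1147, 1168 and 1339 CPM in the 3 GFP low libraries. Every GFP high library was below every GFP low one, and the log2 fold change was -0.42 ± 0.12 (SE; limma adjusted p = 0.0239). RPL8, a large-subunit protein near the catalytic center, read 2452, 2453 and 3130 CPM in GFP high and 3597, 3282 and 3679 CPM in GFP low. Its groups also did not overlap, with a log2 fold change of -0.40 ± 0.13 (limma adjusted p = 0.031).

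RPSA, the small-subunit protein that also serves as a laminin receptor at the cell surface, read 2257, 2439 and 3068 CPM in DU145 GFP high and 3386, 3135 and 3453 CPM in GFP low. Its groups were separate, at -0.37 ± 0.13 (limma adjusted p = 0.0363). RPL36 read 365, 384 and 509 CPM in GFP high and 583, 489 and 554 CPM in GFP low, so replicate 3 of the GFP high libraries was inside the GFP low range, at -0.38 ± 0.14 (limma adjusted p = 0.0466). RPS26, which lies at the exit of the messenger RNA channel, overlapped in the same way, with 334, 328 and 443 CPM against 503, 440 and 460 CPM (-0.36 ± 0.13, limma adjusted p = 0.0484). RPL35 at the peptide exit tunnel read 475, 491 and 649 CPM against 655, 654 and 738 CPM, with no overlap (-0.35 ± 0.13, limma adjusted p = 0.0441).

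Also called lower were RPS20, RPS10, RPL27, RPL32, RPL12, RPL3, RPS4X and RPL15, with log2 fold changes from -0.34 to -0.24. Small-subunit genes made up 7 of the 15 and large-subunit genes 8. In 12 of the 15 there was no overlap between the sorts. In all 15, replicate 3 was the highest of the GFP high libraries, as it was for 73 of all 77 genes. Over all 77 genes, 18 had every GFP high library below every GFP low one and 1 had every one above, against 27.9% and 16.7% of all genes tested.

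RPL17, a large-subunit protein at the peptide exit tunnel, was the gene called higher. It read 859, 813 and 909 CPM in the DU145 GFP high and 739, 728 and 634 CPM in the DU145 GFP low libraries, so the groups did not overlap. The log2 fold change was 0.30 ± 0.07 (1.23-fold; limma adjusted p = 0.0123, the smallest among the 77). The gene lies on chromosome 18 (49488453 to 49492523, minus strand, GRCh38), and the 21 other tested genes within 5 Mb had a median log2 fold change of 0.43, with 15 called higher and none lower. The next highest estimates, 0.14 ± 0.11 for RPS24 and 0.11 ± 0.10 for RPL7, were not called (limma adjusted p = 0.282 and 0.384).

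These DU145 calls rest on single libraries. Without DU145 GFP high 3 the fit called 51 of the 77 genes lower, and 32.1% of all genes tested. Without DU145 GFP high 1, DU145 GFP high 2, DU145 GFP low 1 or DU145 GFP low 3 it called 0 of 77 lower (limma adjusted p; at the unadjusted level the full fit has 32 of 77 under 0.05), and 6.47% to 8.91% of all genes, so the whole table moved with these libraries. It called 9 of 77 lower without DU145 GFP low 2, and 20.5% of all genes. The call of RPL17 was lost without DU145 GFP low 3. Because the groups share 1 estimate of spread, PC3 libraries matter as well. Without PC3 GFP low 2, 33 of the 77 genes were called lower in DU145, beside 25.2% of all genes. Without PC3 GFP low 3 it was 22 (22.3% of all genes), and without any other PC3 library 4 to 6 (17.3% to 18.3%). Without both DU145 GFP high 1 and 2, which leaves 1 GFP high library, the median of the 77 was 0.00677, against -0.03 over all genes tested. Quantile normalization turned the split to 6 higher and 1 lower (9.32% and 9.84% of all genes), and equal medians to 1 higher and 1 lower (17.0% and 15.5%).

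**Figure D2:**
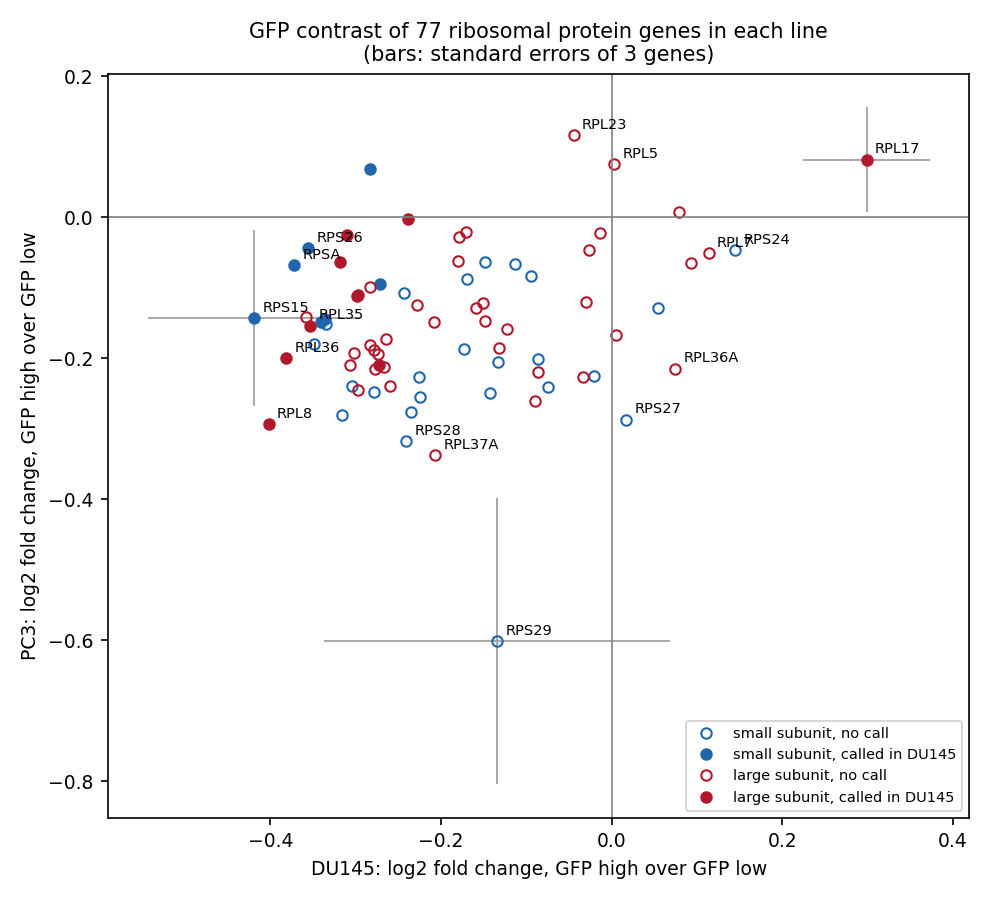
Each point is 1 of the 77 genes, with the log2 fold change of GFP high over GFP low in DU145 on the x axis and in PC3 on the y axis; filled points were called in DU145, blue is the small and red the large subunit, and gray bars are standard errors of 3 genes. Most points lie in the lower left quadrant (65 of 77), RPL17 lies apart at the right and RPS29 at the bottom.

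In PC3, none of the 77 genes was called in either direction (limma adjusted p from 0.0796 upward; 8 had an unadjusted p under 0.05; voom also called 0). Over all genes tested, 4.39% were called higher and 5.63% lower. The median of the 77 was -0.15 against -0.01 over all genes, and 72 of the 77 estimates were negative. Every PC3 GFP high library was below every GFP low one for 12 genes and above for 1, against 15.6% and 15.1% of all genes tested. Estimates were negative in both lines for 65 of the 77 genes. With the replicate number as a block, 2 genes were called lower in PC3 (8.52% of all genes), and under quantile normalization 8 (5.96%). Without DU145 GFP high 3 the fit called 4 lower in PC3 (7.74% of all genes), and without DU145 GFP high 1 it called 1 (5.82%). The median in PC3 was -0.06 without PC3 GFP low 2 and -0.26 without PC3 GFP low 3.

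RPS29 had the lowest estimate in PC3. It read 47.9, 44.1 and 44.5 CPM in GFP high and 63.5, 87.7 and 59.0 CPM in GFP low, so the groups did not overlap. The log2 fold change was -0.60 ± 0.20 (limma adjusted p = 0.0814). In DU145 the same gene read 62.1, 50.1 and 98.2 CPM in GFP high and 82.2, 66.3 and 74.2 CPM in GFP low, which overlap (-0.13 ± 0.20, limma adjusted p = 0.599). RPL37A (-0.34 ± 0.16) and RPS28 (-0.32 ± 0.16) were next lowest in PC3 and were not called (limma adjusted p = 0.217 and 0.241).

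These 3 genes are among the 9 of the 77 with a coding sequence under 300 bases (RPL37, RPL37A, RPL38, RPL39, RPL41, RPS21, RPS27, RPS28 and RPS29). All 9 had negative estimates in PC3, from -0.60 to -0.15, with a median of -0.26. In DU145 their median was -0.21. The highest PC3 estimates belonged to RPL23 (0.12 ± 0.09), RPL17 (0.08 ± 0.07) and RPL5 (0.08 ± 0.07), none of them called (limma adjusted p = 0.464 to 0.578). RPL23 was the gene whose PC3 groups were separate upward, with 434, 464 and 432 CPM in GFP high and 408, 395 and 424 CPM in GFP low.

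The difference between the lines' GFP contrasts was called for none of the 77 genes (limma interaction contrast; 1 gene had an unadjusted p under 0.05, and voom called 0). Of all genes, 7.39% were called for a higher and 11.9% for a lower contrast in DU145 than in PC3. Among the low differences were those of RPS26 (-0.31 ± 0.18, limma adjusted p = 0.234) and RPSA (-0.30 ± 0.18, limma adjusted p = 0.227). The highest differences were those of RPS29 (0.47 ± 0.29), RPS27 (0.30 ± 0.22) and RPL36A (0.29 ± 0.16), with limma adjusted p from 0.2 to 0.324. With the replicate number as a block, 1 gene was called lower for the difference, beside 17.2% of all genes. Without DU145 GFP high 3 there were 6 such calls (19.4% of all genes) and without PC3 GFP low 2 there were 3 (18.8%). Quantile normalization gave 11 called higher (5.83% of all genes).

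By role, the proteins of the P-stalk, which recruits elongation factors, had nearly equal estimates. RPLP0, its base, read 3207, 3262 and 4184 CPM in DU145 GFP high and 4554, 3904 and 4436 CPM in GFP low. The ranges overlap, and the log2 fold change was -0.28 ± 0.13 (limma adjusted p = 0.105). RPLP1 and RPLP2 had the same value of -0.28 (limma adjusted p = 0.0606 and 0.0783), and in PC3 the 3 stalk genes had estimates from -0.22 to -0.10, none called.

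RPL5, RPL11 and RPL23, large-subunit proteins known to bind MDM2 when ribosome assembly fails, had DU145 estimates of 0.00, -0.18 and -0.04. None of them was called in DU145 or PC3. RPL11 was nevertheless separate in DU145, with 802, 821 and 903 CPM in GFP high below 970, 978 and 909 CPM in GFP low (-0.18 ± 0.07, limma adjusted p = 0.066). RPL5 read 660, 725 and 669 CPM in DU145 GFP high and 684, 734 and 635 CPM in GFP low, and 928, 980 and 941 CPM against 932, 886 and 886 CPM in PC3. Its sorts overlapped in both lines.

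Around the peptide exit tunnel the 8 genes of the list went both ways in DU145: RPL17 was called higher and RPL35 lower, and RPL4, RPL19, RPL23A, RPL26, RPL31 and RPL39 were not called. Of the 15 genes mutated in Diamond-Blackfan anemia, an inherited failure of red cell production, 5 were called lower in DU145, among them RPS26, RPS10, RPL27 and RPL15, beside 20.7% of all genes, and none in PC3. RPS6, the S6 kinase substrate, read 783, 861 and 965 CPM in DU145 GFP high and 957, 968 and 889 CPM in GFP low, with overlap (-0.11 ± 0.08, limma adjusted p = 0.282). RPS27A, made as a ubiquitin fusion, had estimates of 0.05 ± 0.10 in DU145 and -0.13 ± 0.10 in PC3, and RPL22, a large-subunit protein with a paralog, 0.09 ± 0.06 and -0.07 ± 0.06. RPL10, which forms part of the tRNA path, had estimates of -0.30 ± 0.12 and -0.19 ± 0.12 (limma adjusted p = 0.0553 and 0.354).

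Several of the 77 serve as reference genes in quantitative PCR. Of 8 such genes (RPLP0, RPL13A, RPS18, RPL19, RPL32, RPS13, RPL27 and RPL30), 2 were called lower in DU145, RPL32 and RPL27, and all 8 had negative estimates in both lines. RPL13A had the smallest DU145 estimate in size, -0.12 ± 0.13. Over all genes tested, 20.7% were called lower and 15.5% higher in DU145. Of 14 reference genes outside the ribosome, 1 was called higher and 5 lower in DU145, among them ACTB, the β-actin gene (-0.49 ± 0.11, limma adjusted p = 0.00974), and PGK1, a glycolytic enzyme (-0.32 ± 0.09, limma adjusted p = 0.0225).

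**Figure D3:**
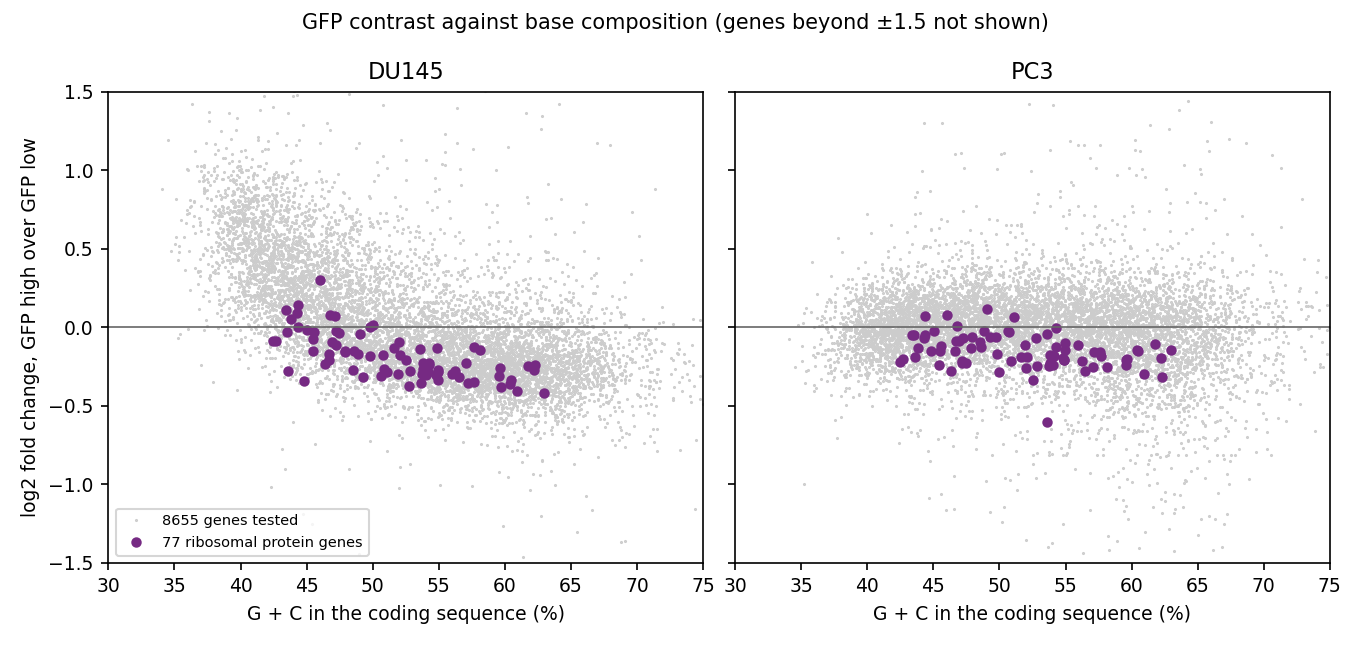
Log2 fold change of GFP high over GFP low (y axis) against the percentage of G and C in the coding sequence (x axis) in DU145 (left) and PC3 (right); purple points are the 77 ribosomal protein genes and gray points the genes tested. In DU145 the purple points follow the downward slope of the gray cloud, and in PC3 most of them lie below 0 within it.

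In DU145 the estimates of the 77 genes followed base composition as those of all genes did. Their coding sequences held 42.5% to 63.0% G and C, with a median of 51.6%, against 52.7% over all genes tested. Spearman's rho between the log2 fold change and that percentage was -0.67 across the 77 genes and -0.66 across all genes tested, which share the same 12 libraries and are not independent. The 38 genes below the median composition had a median log2 fold change of -0.09 in DU145, and the 39 others -0.28. In PC3 rho was -0.35 across the 77 genes and -0.10 across all genes.

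With the trend in base composition and transcript length removed from each library against its line's mean, 2 genes were called higher and 17 lower in DU145, and the median moved from -0.22 to -0.10. Over all genes 10.1% were called higher and 16.9% lower in that fit. In PC3 the same step gave 2 higher and 3 lower with a median of -0.04, beside 14.1% and 11.1% of all genes. With the composition and length of the coding sequence instead, chosen after seeing the data, the counts were 1 higher and 14 lower in DU145 (median -0.14) and 0 higher and 3 lower in PC3 (median -0.08). The shares of all genes were 10.4% and 17.9% in DU145 and 11.1% and 10.4% in PC3. The direction of the median was thus kept in both lines, at a smaller size. Over all genes the median was -0.03 in DU145 and 0.02 in PC3 with the transcript trend removed, and -0.05 and 0.01 with that of the coding sequence. Negative estimates numbered 58 of 77 in DU145 and 49 in PC3 in the former fit, and 67 in each line in the latter.

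**Figure D4:**
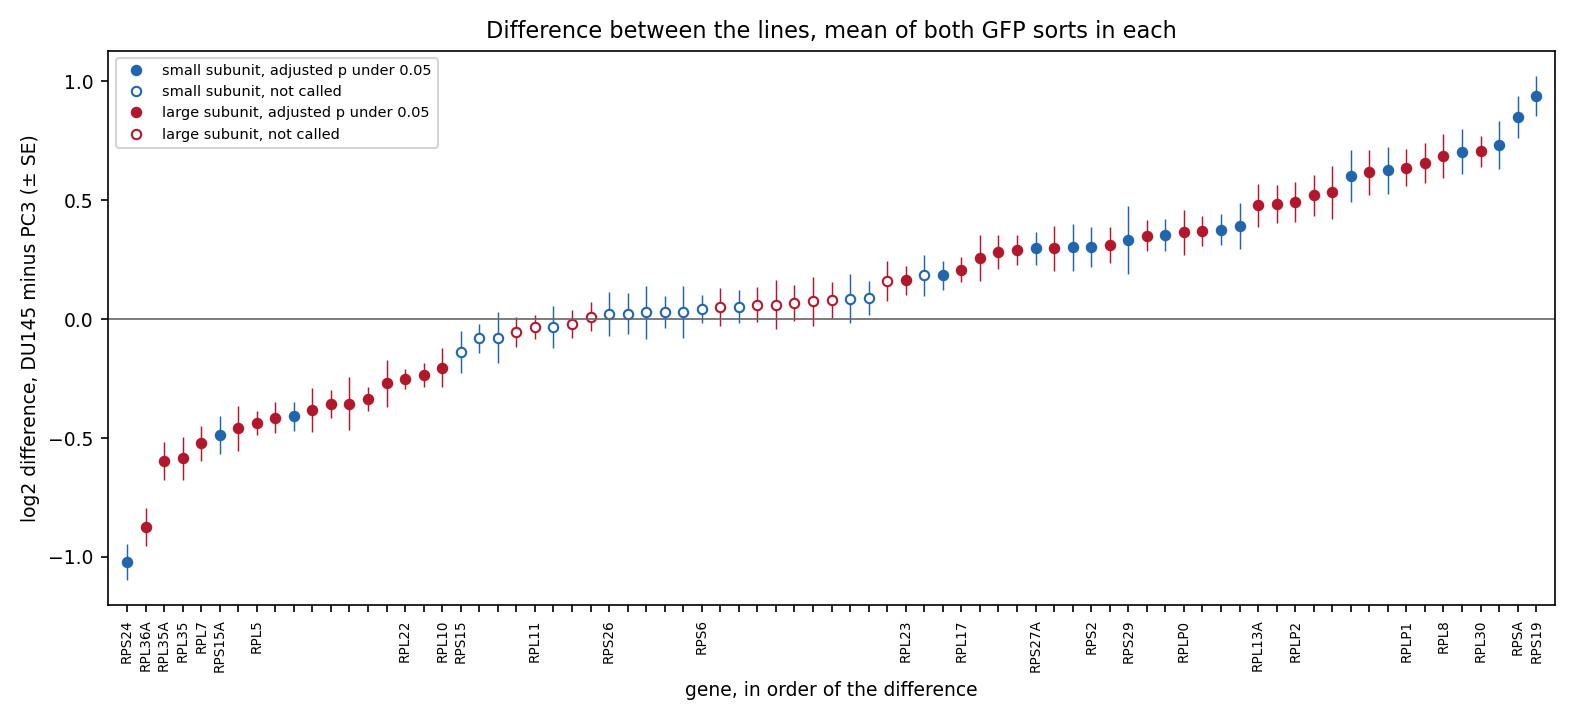
The 77 genes in order of their log2 difference between the lines (DU145 minus PC3, mean of both sorts in each; bars are standard errors). Names are given for genes described in the text, filled points passed an adjusted p of 0.05, blue is the small and red the large subunit; the values run from -1.02 (RPS24) to 0.94 (RPS19).

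Between DU145 and PC3, 34 of the 77 genes were called higher and 18 lower in DU145 (limma adjusted p under 0.05), against 39.4% and 39.8% of all genes tested. The share called higher is near the background and the share called lower is below it. The median of the 77 was 0.08 against 0.01 over all genes, and 15 genes differed at least 1.5-fold. All 6 libraries of DU145 were above all 6 of PC3 for 7 genes and below for 13, against 24.7% and 23.1% of all genes tested. Quantile normalization turned the split to 23 higher and 40 lower with a median of -0.13, beside 37.9% and 40.7% of all genes. Removing the composition and length trend against the mean of all libraries, chosen after seeing the data, gave 28 higher and 31 lower. The shares of all genes in that fit were 36.7% and 44.4%. RPS24, RPS19, RPSA, RPL36A, RPL30, RPL8, RPL35A and RPL35 kept their call and direction in all 27 alternatives.

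RPS19, a small-subunit assembly protein and the first gene linked to Diamond-Blackfan anemia, had the highest value. It read 868, 918 and 1181 CPM in the GFP high and 1105, 1034 and 1108 CPM in the GFP low libraries of DU145. Those of PC3 read 503, 507 and 469 CPM (GFP high) and 579, 690 and 505 CPM (GFP low). Every DU145 library was above every PC3 library, by 0.94 ± 0.08 (1.92-fold; limma adjusted p = 2.75e-07). RPSA was also separate, at 2257 to 3453 CPM in DU145 and 1428 to 1968 CPM in PC3 (0.85 ± 0.09, limma adjusted p = 1.14e-06).

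RPL30 was higher by 0.71 ± 0.06 and RPL8 by 0.69 ± 0.09 (limma adjusted p = 3.07e-07 and 1.19e-05). RPL30 was separate between the lines, while RPL8 overlapped through PC3 GFP low 2, which read 2577 CPM. All 3 genes of the P-stalk were higher in DU145: RPLP1 by 0.64 ± 0.08, RPLP2 by 0.49 ± 0.08 and RPLP0 by 0.37 ± 0.09 (limma adjusted p = 5.73e-06, 0.000102 and 0.0029). The value of RPLP2 turned to -0.0350 when the composition and length trend was removed against the mean of all libraries.

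At the other end, RPS24, a small-subunit protein also mutated in Diamond-Blackfan anemia, read 514, 435 and 443 CPM in DU145 GFP high and 460, 460 and 347 CPM in DU145 GFP low. In PC3 it read 884, 926 and 827 CPM in GFP high and 923, 950 and 852 CPM in GFP low. Every DU145 library was below every PC3 library, by -1.02 ± 0.08 (2.03-fold; limma adjusted p = 3.86e-08, the smallest among the 77). RPL36A, the large-subunit protein at the exit site for tRNA, read 134 to 185 CPM in DU145 and 257 to 334 CPM in PC3, again with no overlap (-0.88 ± 0.08, limma adjusted p = 2.78e-07).

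RPL35A (-0.60 ± 0.08), RPL35 (-0.59 ± 0.09), RPL7 (-0.52 ± 0.07) and RPS15A (-0.49 ± 0.08) were lower in DU145 with separate libraries (limma adjusted p from 1.23e-05 to 6.31e-05). RPL5 was lower by -0.44 ± 0.05 while its partner RPL11 differed by -0.03 ± 0.05, which was not called (limma adjusted p = 0.543). RPL35 was lower in DU145 than in PC3 and, within DU145, lower in GFP high than in GFP low.

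**Figure D5:**
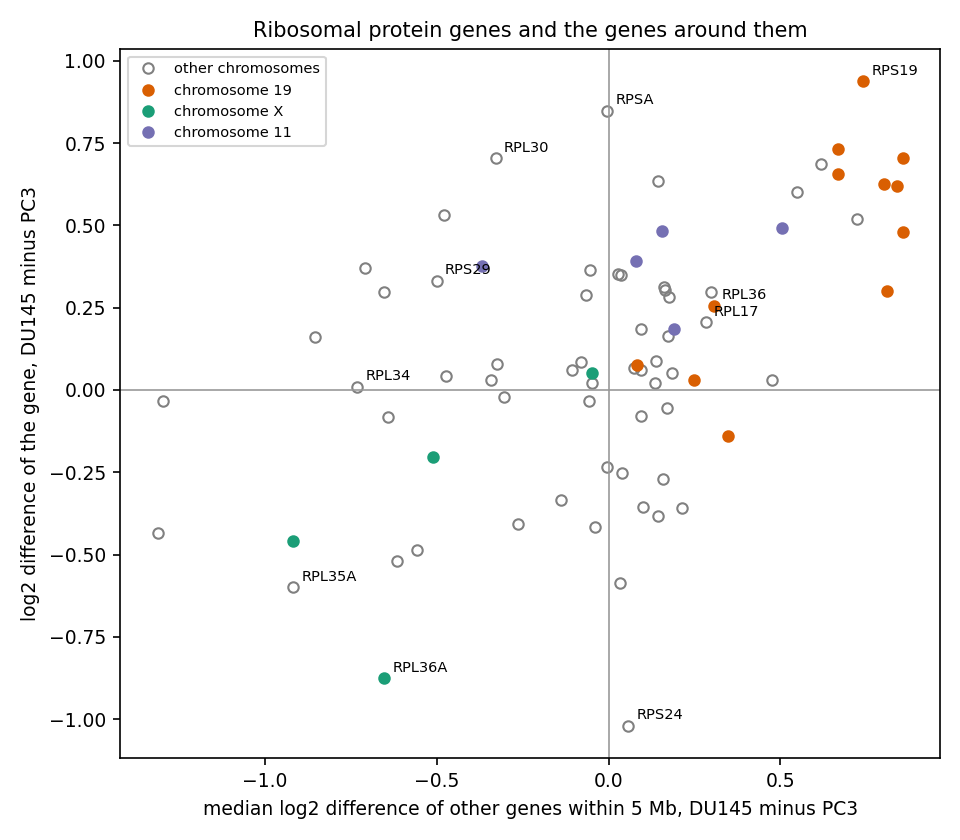
Log2 difference between the lines (DU145 minus PC3) of each of the 77 genes (y axis) against the median of the other tested genes within 5 Mb of its start (x axis), with chromosomes 11, 19 and X in color. Most genes of chromosome 19 lie at the upper right, and RPS24, RPSA and RPL30 lie away from the diagonal.

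Part of the line differences went along with the position of the genes. The 77 genes lie on 21 chromosomes, 12 of them on chromosome 19, and the latter had a median difference of 0.55, with 9 called higher and none lower in DU145. The median of the other tested genes within 5 Mb was 0.74 around RPS19 (105 genes) and 0.80 around RPS16. All 5 genes on chromosome 11 were called higher and 3 of the 4 on chromosome X lower, beside 39.4% and 39.8% of all genes tested. Around RPL36A the 14 neighbors had a median of -0.65, around RPL35A the 27 neighbors -0.92, and around RPL5 the 25 neighbors -1.31.

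Other genes did not follow their neighbors. RPS24 had the lowest value of all while the 31 genes around it had a median of 0.06, and the values around RPSA and RPL30 were -0.01 and -0.33. Of the 52 genes called between the lines, 36 had the sign of their neighbors' median, a count not made over all genes tested. Spearman's rho between gene and neighbors was 0.46 over the 77 genes, which is a description since neighborhoods overlap. Copy number was not measured here. The line difference also went with base composition, with rho of 0.49 across the 77 genes and 0.58 across all genes tested.

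The balance of the subunits depended on the summary used. The mean log2 value of the 46 large-subunit genes minus that of the 31 small-subunit genes was 0.05, 0.03 and -0.03 in the GFP high and -0.03, 0.00 and -0.01 in the GFP low libraries of DU145. In PC3 it was 0.14, 0.11 and 0.15 in GFP high and 0.10, 0.05 and 0.11 in GFP low. On means, every PC3 library was above every DU145 library, the sorts overlapped in DU145, and in PC3 each GFP high library was at or above the highest GFP low one. With medians in place of means the values were 0.18, 0.13 and -0.00694 in the GFP high and -0.06, -0.11 and -0.07 in the GFP low libraries of DU145, so the sorts did not overlap there. In PC3 they were 0.28, 0.23 and 0.28 in GFP high and 0.18, 0.02 and 0.29 in GFP low, so the sorts overlapped and PC3 GFP low 2 was below DU145 GFP high 1 and 2.

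Genes of the wider pathway were read from lists chosen for their function. FAU, a small-subunit protein fused to a ubiquitin-like one, had an estimate of -0.28 ± 0.13 in DU145 (limma adjusted p = 0.103). Of 5 tested paralogs of ribosomal proteins none was called in either line. Of 17 other genes known for TOP messenger RNAs, 3 were called higher and 2 lower in DU145, and 1 lower in PC3. Over all genes 15.5% were called higher and 20.7% lower in DU145, and 5.63% lower in PC3. EIF3E, a subunit of an initiation factor, read 168, 84.8 and 72.5 CPM in DU145 GFP high and 55.2, 70.1 and 56.3 CPM in GFP low (0.75 ± 0.23, limma adjusted p = 0.0281). Replicate 1 carried much of this value, which was 0.38 without it (limma adjusted p = 0.082). NAP1L1 (0.32 ± 0.10) and NACA (0.19 ± 0.07) were also called higher, while EEF2, the translocation factor, was lower (-0.31 ± 0.11, limma adjusted p = 0.0466). TPT1 was lower in PC3 GFP high (-0.31 ± 0.07, limma adjusted p = 0.0121).

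Of 34 ribosome assembly factors, 17 were called lower and 2 higher in DU145 GFP high, 4 were called higher and 0 lower in PC3 GFP high, and 12 were called for a lower contrast in DU145 than in PC3. Over all genes the shares were 20.7% lower and 15.5% higher in DU145, 4.39% higher and 5.63% lower in PC3, and 11.9% for the lower contrast. NOP2, which methylates ribosomal RNA, read 174, 188 and 194 CPM in DU145 GFP high and 246, 228 and 238 CPM in GFP low, and 200, 215 and 190 CPM in PC3 GFP high against 165, 169 and 154 CPM in GFP low. Its sorts were separate in both lines, downward in DU145 (-0.36 ± 0.07, limma adjusted p = 0.00478) and upward in PC3 (0.31 ± 0.07, limma adjusted p = 0.0132). DKC1, which converts uridine to pseudouridine, did the same, at -0.22 ± 0.08 and 0.37 ± 0.08 (limma adjusted p = 0.0373 and 0.00695).

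Of 14 genes of the mTORC1 and 4E-BP pathway and MYC, 3 were called lower and 2 higher in DU145 and 1 higher in PC3. The shares of all genes were 20.7%, 15.5% and 4.39%. MYC itself read 251, 251 and 246 CPM in DU145 GFP high and 341, 355 and 338 CPM in GFP low, with no overlap (-0.47 ± 0.06, limma adjusted p = 0.000195). In PC3 it read 176, 185 and 177 CPM against 194, 192 and 187 CPM (-0.09 ± 0.06, limma adjusted p = 0.349). LARP1, the TOP-binding protein, was higher in PC3 GFP high (0.20 ± 0.06, limma adjusted p = 0.0345) and stood at 0.00 ± 0.06 in DU145.

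The mitochondrial ribosome was set beside the cytosolic one as the most similar gene family. Of its 77 genes 72 passed the minimum, and 4 were called higher and 15 lower in DU145, 0 higher and 2 lower in PC3, and 33 higher and 17 lower between the lines. The shares of all genes, higher and lower, were 15.5% and 20.7%, 4.39% and 5.63%, and 39.4% and 39.8%. Its median was -0.22 in DU145, the same as that of the cytosolic genes, and -0.06 in PC3, where the cytosolic genes had -0.15. MRPL40 was lower in both lines (-0.50 ± 0.09 and -0.31 ± 0.09, limma adjusted p = 0.0029 and 0.0422). The difference between the families was not tested. Among EIF3E, NAP1L1, NACA, EEF2, TPT1, NOP2, DKC1, MYC, LARP1, MRPL40, ACTB and PGK1, the calls of ACTB, MYC, NOP2 and MRPL40 in DU145 and of DKC1 in PC3 held without any single library, which was checked after seeing the data. Each of the other calls was lost without at least 1 library, among them that of NOP2 in PC3 without PC3 GFP high 2 (0.26, limma adjusted p = 0.0723) and that of TPT1 without PC3 GFP high 1 (-0.29, limma adjusted p = 0.063).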

How the data were processed

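The table holds the authors' deposited log2 values, per the labels log2 normalized counts, for 18950 genes in 12 libraries. The column minima show log2 CPM with an offset of 0.5 counts; counts estimated from them were whole (within 0.01) for 86.9% of genes in the median library. STAR and DESeq2 appear in the submitters' processing notes; build and counting are not stated in the sources used here. A count of 0 allows up to 0.233 CPM in the shallowest library (3 counts, counting error only).

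Contrasts were fitted with limma 3.58.1 in R 4.3.3 (4 group means, eBayes with trend, 8 residual degrees of freedom, two-sided, Benjamini-Hochberg over the 8655 genes with a log2 value of at least 4 in 3 or more libraries), after the script was tested on simulated data; voom came from limma. Positions, base composition and coding length came from GENCODE 29 (GRCh38), matched by identifier for 18901 genes. Alternatives were other minima, scalings, tests, a replicate block, removal of composition and length trends (loess, span 0.4) and leaving out libraries.

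Some genes that the rules below would name are not reported here. The 77 genes and all lists were chosen with earlier results of these data known. Named are the genes called in a GFP contrast (the 6 largest each way), the extremes of each contrast (3 or 6 each way) and of the level per kilobase (4 each way), and 14 always; RPL7A, RPL13, RPL4 and other single genes in passing were added after their values were seen. The deviations of same-numbered libraries correlated at 0.12, 0.43 and 0.35 in PC3 and at -0.21, 0.19 and 0.47 in DU145. Differently numbered libraries reached 0.14 in PC3 (GFP high 3 with GFP low 1) and 0.50 in DU145 (GFP high 1 with GFP low 2). The labels state no pairing, and the main fits used none. The replicate block, an alternative, was applied to both lines.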

Additional observations from a re-analysis of the deposited data

Results flagged for a closer look

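No group held enough libraries for a check of single outlying samples. Of the genes named beside the ribosomal proteins, 10 had GFP contrasts that differed between the lines by limma's interaction contrast (adjusted p under 0.05), given as the DU145 minus the PC3 log2 fold change. Among the assembly factors, the difference was -0.67 for NOP2, -0.60 for DKC1, -0.58 for NOP16 and -0.46 for RRS1. It was -0.37 for MYC and 0.49 for TPT1. Among the mitochondrial ribosomal proteins it was -0.47 for MRPS5 and 0.74 for MRPL50. Of the reference genes, TFRC differed by -0.75 and POLR2A by -0.64. None of the 77 cytosolic ribosomal protein genes was called in this contrast.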

How the results depend on the processing

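The medians of the 77 genes moved beyond the spread between replicates in a pair of fits: under quantile normalization to 0.00 in DU145 and -0.13 between the lines, and without both DU145 GFP high 1 and 2 to 0.00677 in DU145 and 0.23 between the lines. Without both PC3 GFP low 2 and 3 the median in PC3 was -0.13. In DU145 the count called lower was 2 with no minimum, 6 with a minimum of 0 and 1 with equal medians. It was 1 under quantile normalization (6 higher) and 5 without the eBayes trend. Over all genes, the share called lower in DU145 was 7.84% with no minimum, 13.9% with a minimum of 0 and 15.5% with equal medians. It was 9.84% under quantile normalization (9.32% higher) and 18.5% without the eBayes trend. The replicate block gave 35 lower in DU145, 2 lower in PC3 and 1 lower for the difference (27.6%, 8.52% and 17.2% of all genes). With the composition and length trend removed as well it gave 4 higher and 30 lower, 3 higher and 11 lower, and 4 higher and 13 lower. The shares of all genes were then 12.5% and 20.3%, 16.1% and 12.7%, and 14.3% and 22.0%. Removal of the trend alone gave 2 higher in DU145 (10.1% of all genes) and 2 higher and 3 lower in PC3 (14.1% and 11.1%). For the difference it gave 3 higher and 8 lower (11.9% and 18.5%). Removal of the coding-sequence trend gave 3 lower in PC3 (10.4%) and 3 lower for the difference (17.3%). In PC3 the count called lower was 8 under quantile normalization and 1 with each line alone. For the difference, 11 were higher under quantile normalization. Between the lines, 40 were lower under quantile normalization (40.7% of all genes) and 31 with the trend removed against all libraries (44.4%). In PC3 the share of all genes called lower was 5.96% under quantile normalization and 4.32% with each line alone. For the difference, 5.83% of all genes were higher under quantile normalization.

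Leaving out each library in turn gave 0 to 1 higher and 0 to 51 lower in DU145 (median -0.34 to -0.14), 0 higher and 0 to 4 lower in PC3 (-0.26 to -0.06), 0 higher and 0 to 6 lower for the difference (-0.18 to 0.05), and 31 to 36 higher and 16 to 20 lower between the lines (0.02 to 0.13). Of all genes, 6.47% to 32.1% were then called lower in DU145, 3.13% to 7.74% in PC3 and 7.05% to 19.4% for the difference. Between the lines the shares were 37.7% to 40.7% higher and 38.2% to 39.8% lower. The summed level, GFP high minus GFP low, ran from -0.765 to -0.181 percentage points in DU145 and from -0.899 to -0.207 in PC3, and the subunit balance from 0.01 to 0.05 and from 0.03 to 0.06. With medians in place of means that balance was 0.18 in DU145 and 0.10 in PC3. Values of single genes turned 9 times, in 4 fits. RPL7 in DU145 stood at -0.11 with the coding-sequence trend removed and ran from -0.0267 (without DU145 GFP low 3) to 0.201 over single libraries left out. Between the lines, quantile normalization gave RPL17 -0.0492, RPL23 -0.0604 and RPS2 -0.13, and the trend removed against all libraries (chosen, like that of the coding sequence, after seeing the data) gave RPL22 0.26, RPL36 -0.35, RPLP2 -0.0350 and RPS2 -0.14. Each line alone gives no test of the difference or of the lines. The cause of these changes was not tested. Fits that leave 1 library in a group assume that it varies like the others, so no counts of calls are given for them.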
